A study of Rattus norvegicus with 12 samples.

Results

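The genes described here encode the nuclear-coded subunits of the mitochondrial respiratory chain and of ATP synthase, with a few assembly factors, measured in the striatum of rats after carbon monoxide (CO) poisoning or breathing of a low-oxygen gas. The probes were those whose gene name begins with Nduf, Uqcr, Cox4 to Cox8 or Atp5, or is Sdha, Sdhb, Sdhc, Sdhd or Cycs. A probe was kept where its signal was well above background on all 12 arrays and its name was not that of a pseudogene. Of 40998 probes for 35187 gene or transcript names, 106 probes carried such a name, and 102 probes of 82 genes were kept. The 102 were 40 probes for complex I, 6 for its assembly factors, 4 for complex II, 9 for complex III, 3 for cytochrome c, 17 for complex IV, 19 for ATP synthase and 4 for genes that carry such a name and are not subunits.

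In the respiratory chain, complexes I and II pass electrons from NADH and succinate to ubiquinone, complex III passes them to cytochrome c, and complex IV, cytochrome c oxidase, passes them to oxygen. Complexes I, III and IV pump protons across the inner mitochondrial membrane, and ATP synthase uses their return to make ATP. Neurons of the striatum depend on this pathway for most of their ATP, and CO can bind the heme of complex IV in competition with oxygen as well as hemoglobin.

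Each array held the RNA of both striata of 1 male Sprague-Dawley rat of 235 to 265 g, killed under pentobarbital and perfused with cold saline before the brain was removed. For 40 minutes the rats had breathed air, CO at 1000 or 3000 ppm, or 5% O2. The control was 1 rat killed at 0 h after air. Each CO dose had 4 rats, killed at 0, 2, 6 or 12 h, and 5% O2 had 3 rats, killed at 0, 2 or 6 h. No combination of exposure and hour had a replicate, so differences between single arrays have no replicate check, and those from air all share the 1 air rat. Age was not given. Levels are log2 of the processed fluorescence signal minus the 75th percentile of its array, and an array's spots were well above background in 72.9% to 78.7% of cases, with 0 saturated. The air array and 3000 ppm CO at 0, 2 and 6 h were on 1 slide, the 4 arrays of 1000 ppm CO filled another, and 3000 ppm CO at 12 h lay with the 5% O2 arrays on the third. Per the file headers, the slide of the air array was scanned on another date than the others.

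All 15 measured markers of medium spiny neurons, the main neurons of striatum, were well above background on all 12 arrays. Their levels summed (75th percentile of the array = 1) to 375.8 after air, 212.2 to 788.6 over the 1000 ppm CO arrays, 417.7 to 597.7 over the 3000 ppm CO arrays and 68.5 to 534.3 over the 5% O2 arrays. The lowest sums were those of 5% O2 at 0 h and of 1000 ppm CO at 6 h, where all 15 markers were below air. Markers of septal and thalamic neurons, which lie beside the striatum, summed to 43.7 after air and were highest in 5% O2 at 0 h (129.8), 1000 ppm CO at 6 h (98.4) and 3000 ppm CO at 12 h (70.4), against 5.6 to 37.8 in the other 3000 ppm CO arrays. Of the 10 markers, 1, 2 and 3 were below air in these highest arrays in turn. The median differences from air of the marker lists for astrocytes, oligodendrocytes, microglia, endothelium with pericytes and striatal interneurons lay between −0.44 and 0.69 in all exposed arrays. Those for cortical neurons ran from −1.05 to 1.25 and those for blood cells from −0.63 to 2.52, highest at 6 h after 3000 ppm CO. In RNA from whole tissue, fewer cells of a type and less RNA per cell cannot be told apart.

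The respiratory chain and ATP synthase genes varied little over the 12 rats. The median SD of a member probe over the 12 arrays was 0.14 log2 units, against 0.26 for all 27929 probes well above background on all arrays and 0.19 for the 3060 of these that were at least as bright as the lower quartile of the members. The highest and lowest arrays differed by less than 1.5-fold in 73 of the 102 probes (71.6%) in 25.1% of all 27929 and in 48.3% of the 3060 bright ones. They differed by 2-fold or more in 4 of the 102 (3.92%), against 37.8% of all and 17.3% of the bright ones. The 4 were Cox8b, Ndufaf2, Cox6b2 and a probe of Cox6a2. The smallest ranges belonged to Ndufaf1, a complex I assembly factor (−0.18 to −0.01 against air over the 11 exposed arrays), Ndufs7, a complex I subunit that carries an iron-sulfur cluster (−0.08 to 0.10), and Uqcrh, the hinge subunit of complex III (−0.14 to 0.04).

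**Figure D1:**
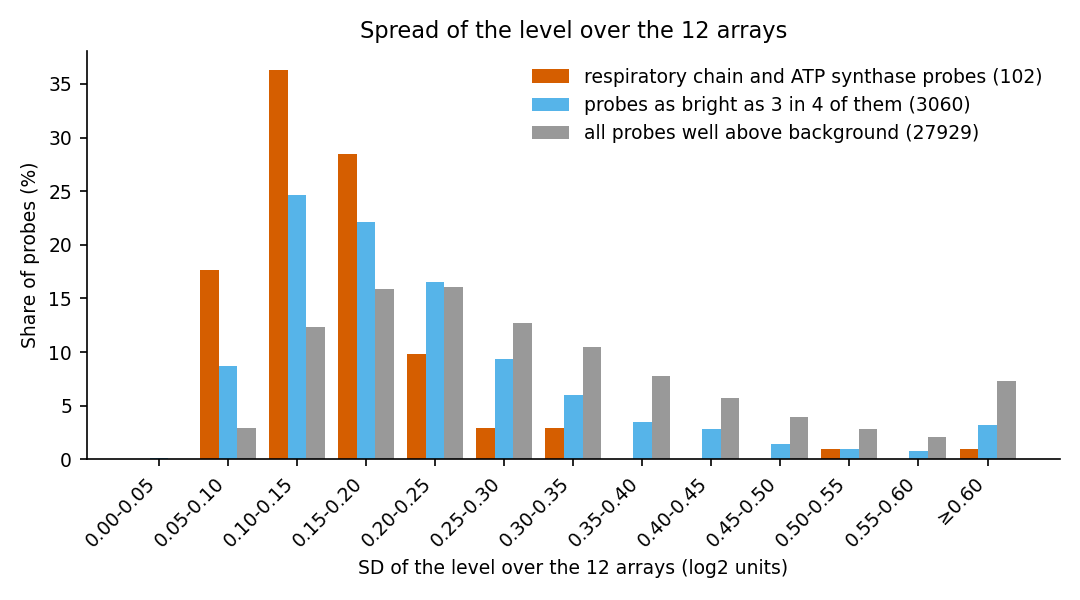
Share of probes (y axis, %) by SD of the level over the 12 arrays (x axis, log2 units), for the 102 respiratory chain and ATP synthase probes, the 3060 probes of like brightness and all 27929 probes well above background. The member probes gather below 0.20, and 2 of them, Ndufaf2 and Cox8b, lie at 0.50 or above.

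Against the air array, 10 of the 102 probes (9.80%) differed by at least 1.5-fold in 1 or more of the 11 exposed arrays, against 56.1% of all 27929 probes. Of the 10, Cox4i1 was higher than air and 9 were lower: Ndufaf2, Ndufaf4 (probe 1), Ndufc2 (probe 2), Cox6a2 (both probes), Cox6b2, Cox7c (probe 1), Cox8b and Atp5hl1. Over all 27929 probes, 8936 were higher by this much in at least 1 exposed array and 9140 were lower. The members made 32 such differences in 1122 values. After 1000 ppm CO, 5 members differed by 1.5-fold at 0 h (all probes 23.1%), 7 at 2 h (26%), 7 at 6 h (24.8%) and 4 at 12 h (20.6%). After 3000 ppm CO, 1 member did at 0 h (7.63%), 1 at 2 h (13.1%), 1 at 6 h (15.6%) and 3 at 12 h (21.7%). After 5% O2, 1 member did at 0 h (21.5%), 1 at 2 h (12.8%) and 1 at 6 h (12.9%). In each array with 1 such member it was Cox8b. Among the exposed arrays, those of 3000 ppm CO at 0, 2 and 6 h alone shared the slide and scan date of the air array. In the others, exposure cannot be told apart from slide and scan date.

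Within these narrow limits the members shifted in small steps. At 0 and 6 h after 3000 ppm CO most of them lay below air, and at 12 h most lay above it. Right after 3000 ppm CO, 90 of the 102 probes were below the air array, with a median difference of −0.13. At 2 h the median was −0.01 with 56 below, at 6 h it was −0.15 with 86 below, and at 12 h it was 0.12 with 80 above. After 1000 ppm CO the medians were −0.05, −0.06, 0.09 and −0.06 at the 4 hours in turn, with 39, 37, 68 and 36 of 102 above air. After 5% O2 the medians lay between −0.01 and 0.04, with 49, 47 and 64 above air at 0, 2 and 6 h. The median of all 27929 probes stayed between −0.02 and 0.05 in these arrays. The signs at 0, 6 and 12 h after 3000 ppm CO held under the 5 other ways of scaling or choosing probes that were run. The value of 1000 ppm CO at 6 h turned to −0.34 with another background correction, normexp, applied to the raw spot signals.

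The 3000 ppm CO arrays can also be set against their own 0 h rat. At 2 h 89 of 102 members were higher than at 0 h, with a median of 0.11, and at 12 h 92 of 102 were, with a median of 0.25, while 55.4% and 50.6% of all probes were higher at these hours. At 6 h 41 of 102 were higher (all probes 54.2%). After 1000 ppm CO, 75 of 102 were higher at 6 h than at 0 h (all probes 44.9%). The 2 h and 12 h rats of this dose had 38 and 48 of 102 members above its 0 h rat (all probes 52.6% and 44.7%). For 5% O2, 44 of 102 members of the 2 h rat and 54 of the 6 h rat exceeded its 0 h rat (all probes 51.6% and 47%). The 12 h rat after 3000 ppm CO was hybridised on another slide than its 0, 2 and 6 h rats, so its hour and its slide cannot be told apart. The arrays with the highest member medians, 1000 ppm CO at 6 h and 3000 ppm CO at 12 h, were also among those with the highest sums of septal and thalamic neuron markers, and the part of these cells in the result was not tested. The array with the highest sum, 5% O2 at 0 h, had a member median of −0.01.

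The steps were shared by the medians of complexes I and III and ATP synthase and were smaller in the median of complex IV. Single complex IV probes did not vary less. Their median SD over the arrays was 0.16, against 0.13 for complex I, 0.12 for complex III and 0.15 for ATP synthase. With each probe centred on its own mean over the 12 arrays, the median of complex I ran from −0.15 (3000 ppm CO at 6 h) to 0.15 (3000 ppm CO at 12 h). That of complex III ran from −0.14 to 0.16 and that of ATP synthase from −0.17 to 0.17, with the lowest and highest at the same arrays. The median of complex IV stayed between −0.06 and 0.11, a range of 0.17, though with normexp its range was 0.42 and that of complex I 0.41. Of the 40 complex I probes, 3 were above air at 0 h and 4 at 6 h after 3000 ppm CO, and 34 at 12 h after 3000 ppm CO and 34 at 6 h after 1000 ppm CO. Of the 19 ATP synthase probes, these numbers were 0, 1, 15 and 11, and of the 17 complex IV probes 4, 8, 13 and 8.

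**Figure D2:**
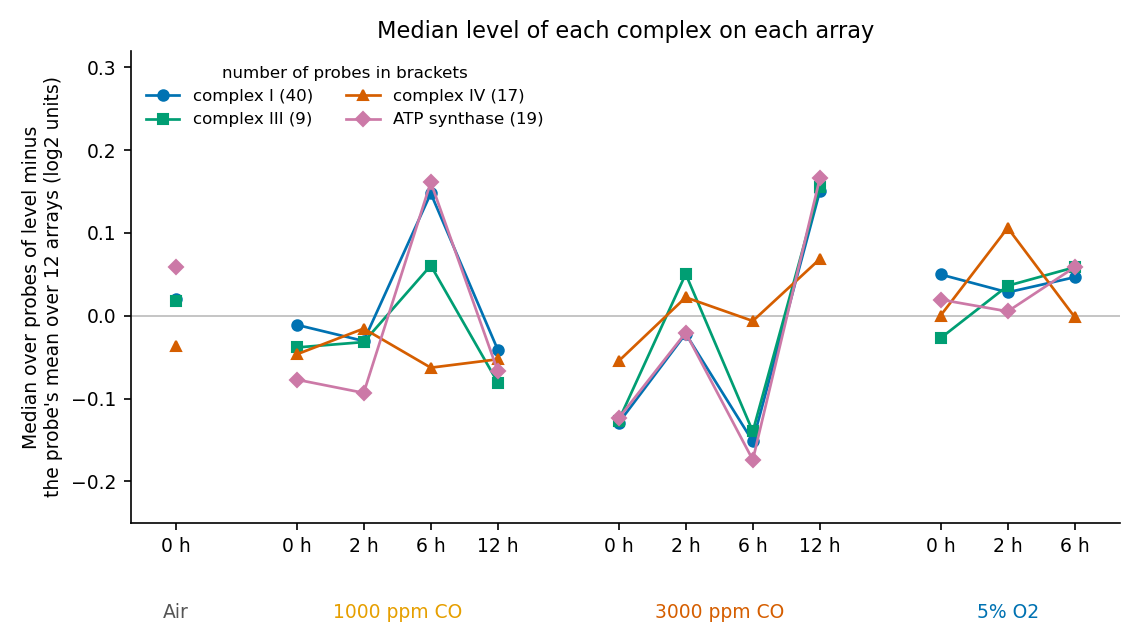
Median over the probes of a complex of the level minus that probe's mean over the 12 arrays (y axis, log2 units) on each array (x axis, hours after the exposure named below; 1 rat per point, lines join the rats of an exposure). Complexes I and III and ATP synthase are lowest at 6 h and highest at 12 h after 3000 ppm CO, while complex IV stays between −0.06 and 0.11.

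A limma model with exposure and hour as additive terms was fitted to all 32230 probes well above background on at least 3 arrays, with Benjamini-Hochberg adjustment over all of them. None of the 102 member probes passed an adjusted p of 0.05 between hours: 0 at 2 h against 0 h (0.0155% of all probes passed), 0 at 6 h (0.0186%) and 0 at 12 h (0.0124%). At an unadjusted p under 0.05 there were 0, 1 and 0 member probes, against 3.73%, 2.76% and 5.63% of all. Against air, 0 passed for 1000 ppm CO (0.13% of all), 3000 ppm CO (0.00621%) and 5% O2 (0.0031%), with 6, 1 and 1 at an unadjusted p under 0.05 (11.7%, 4.38% and 7.34% of all). Against 5% O2, 0 passed for 3000 ppm CO (0% of all) and 0 for 1000 ppm CO (0.31%), with 4 and 7 at an unadjusted p under 0.05 (14.6% and 12.4% of all). Without the 6 h rat of 1000 ppm CO the last count was 3, while the count over all probes rose from 100 to 2082 (6.46%).

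Between the doses of CO, 4 of the 102 members passed, all higher after 3000 ppm, against 4.43% of all probes in either direction and 4.01% higher. At an unadjusted p under 0.05 there were 13 members (12.7%), against 19.2% of all. The 4 were Ndufaf2, Atp5hl1, Cox7c (probe 1) and Cox6a2 (probe 2). In 13 of the 102 probes the 4 arrays of 1000 ppm CO and the 4 of 3000 ppm CO did not overlap, as in 11.2% of all 27929 probes. The 1000 ppm CO arrays filled their slide alone, so this dose and its slide cannot be told apart. With slide as a random block (estimated correlation 0.81), 0 of all probes and 0 members passed. The share of members is close to the background. When single rats were left out, the counts of members and of all probes both fell. Member calls were 0 without the 0 h or 2 h rat of 1000 ppm CO (1.81% and 0.88% of all probes passed). Without the 0 h or 2 h rat of 3000 ppm CO they were also 0 (0.45% and 0.47%). They were 1 without the 6 h rat after 3000 ppm CO (1.21%) or the 2 h rat after 5% O2 (1.80%). They were 2 without the 6 h rat after 1000 ppm CO (3.69%) or the 0 h or 6 h rat after 5% O2 (2.46% and 2.43%).

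The probes of these genes differ in composition. The first 30 of the 60 bases are given here for Ndufaf2, Atp5hl1 and Cox6a2 with G and C in capitals, to show how their composition differs: the Ndufaf2 probe is poor in G and C, while Atp5hl1 is near the members' median of 44.2% and Cox6a2 probe 2 above it. Positions are those the array files give on rat build rn4, and the one given for Ndufaf2 is shorter than its probe. The exon was not analysed here.
Ndufaf2, chr2:39269415-39269446, 28.3% G and C: ataaGaaGaaaaaGaaaGaCtCCaCCtata
Atp5hl1, chr16:51796337-51796396, 43.3% G and C: aGGaCCaatGtaGGCaaGGCtGGCttGGtG
Cox6a2 probe 2, chr1:187465250-187465309, 51.7% G and C: GaCtGaGtGaaGGaGaCaGaGaaGGaCaGt

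Ndufaf2 encodes an assembly factor of complex I that resembles one of its subunits. Its level was −2.00 after air, and against air it was −1.20, −1.26, −1.53 and −0.97 at 0, 2, 6 and 12 h after 1000 ppm CO. After 3000 ppm CO it was −0.09, −0.22, −0.44 and −0.37, and after 5% O2 −0.46, −0.39 and −0.24 at 0, 2 and 6 h. All 4 arrays of 1000 ppm CO were lower than any of the other 8. In the limma model Ndufaf2 was higher after 3000 than after 1000 ppm CO by 0.96 ± 0.15 log2 units (SE; adjusted p = 0.0163). Over 24 alternatives the difference ran from 0.13 (normexp, adjusted p = 0.740) to 1.09, and the adjusted p from 0.0136 to 1 (slide as a random block).

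Atp5hl1 is a gene copy resembling Atp5h, which encodes subunit d of the peripheral stalk of ATP synthase. Against air it was −0.87, −0.83, −0.62 and −0.73 at the 4 hours after 1000 ppm CO and −0.17, −0.10, −0.26 and 0.01 after 3000 ppm CO, while each 5% O2 rat was at −0.11. Again the 1000 ppm CO arrays stood below all others, and the model gave 0.63 ± 0.10 for 3000 against 1000 ppm CO (limma, adjusted p = 0.0207). The probe of Atp5h itself differed by 0.25 ± 0.10 in the same direction (limma, adjusted p = 0.237). Transcripts of such near copies can bind the same probe, so the source of the Atp5hl1 signal is uncertain.

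Cox7c and Cox6a2 encode small subunits of cytochrome c oxidase, Cox6a2 being the heart and muscle isoform. Cox7c probe 1 was −0.48, −0.59, −0.78 and −0.64 against air after 1000 ppm CO, −0.03, 0.14, 0.01 and −0.13 after 3000 ppm CO, with −0.37, −0.16 and −0.11 in the 5% O2 rats. Its difference between the doses was 0.62 ± 0.12 (limma, adjusted p = 0.0315), and 0.102 was its adjusted p when probe G and C content was taken into account. Cox6a2 probe 2 was −0.39, −0.49, −0.61 and −0.40 after 1000 ppm CO, while after 3000 ppm CO it was −0.08, 0.15, 0.00 and 0.13, with 0.10, −0.09 and −0.14 in the 5% O2 rats. Its difference was 0.52 ± 0.10 (limma, adjusted p = 0.0390), and it turned to −0.095 with normexp.

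**Figure D3:**
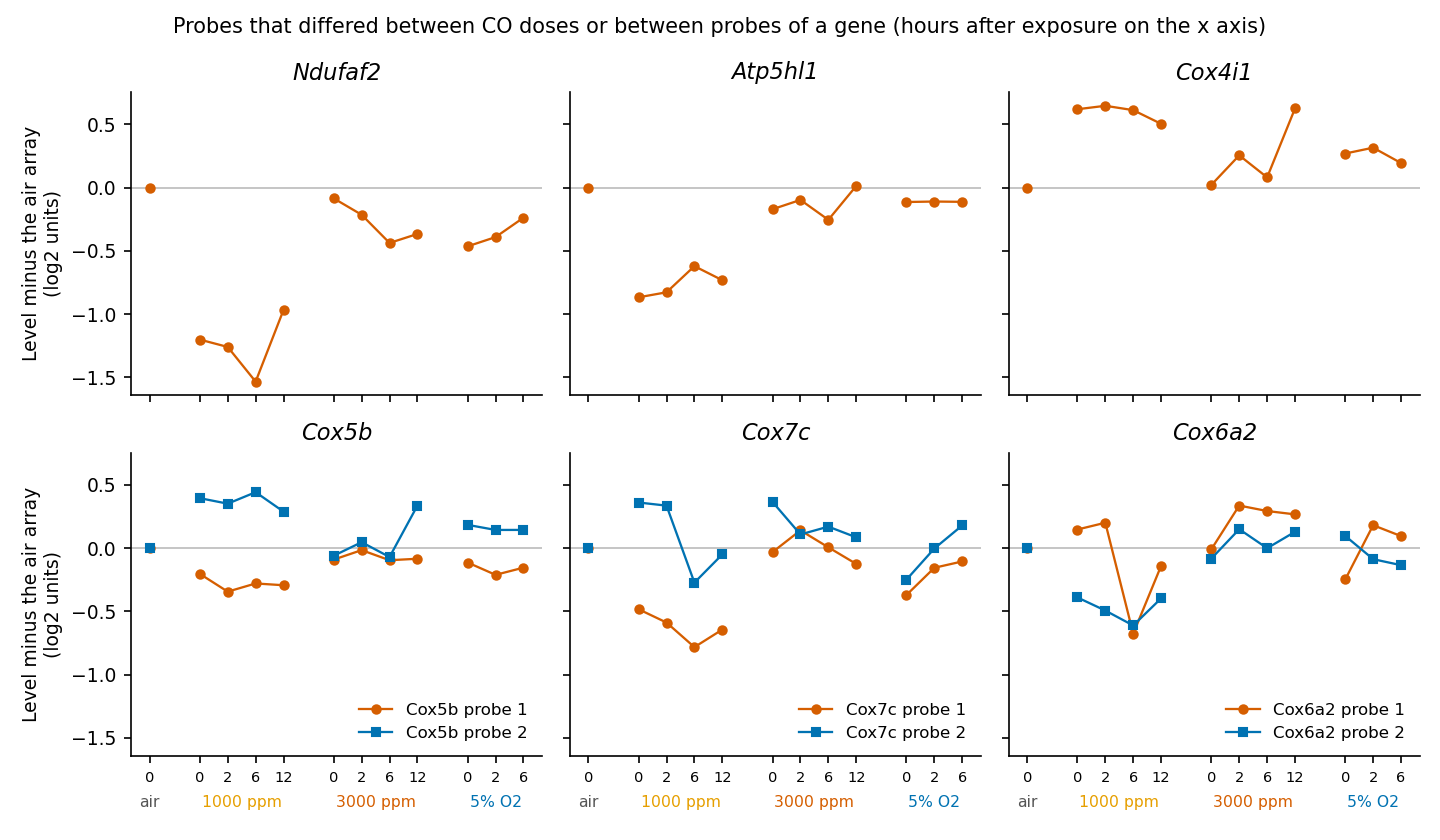
Level minus the air array (y axis, log2 units) of 6 genes on each array (x axis, hours after the exposure named below; 1 rat per point, lines join the rats of an exposure), with both probes where a gene has a pair. Ndufaf2, Atp5hl1 and probe 1 of Cox5b and Cox7c are low on all 4 arrays of 1000 ppm CO, while Cox4i1 and probe 2 of Cox5b are high there.

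For several genes the probes of 1 gene did not move alike on the 1000 ppm CO arrays. Cox7c probe 2, which has 35% G and C, was 0.36 and 0.34 against air at 0 and 2 h after 1000 ppm CO, where probe 1 was −0.48 and −0.59, and it was −0.27 and −0.05 at 6 and 12 h. Cox6a2 probe 1 (60% G and C) was 0.15 and 0.20 where probe 2 was −0.39 and −0.49. Cox5b, a nuclear-coded subunit of cytochrome c oxidase, had its probes on opposite sides of air at all 4 hours after 1000 ppm CO: probe 1 was −0.20, −0.34, −0.28 and −0.29, and probe 2 was 0.39, 0.35, 0.44 and 0.29. After 3000 ppm CO at 0, 2 and 6 h both Cox5b probes lay between −0.10 and 0.05. Ndufc2, a complex I membrane subunit, had probe 1 at −0.13, −0.15, 0.11 and −0.14 and probe 2 at −0.68, −0.70, −0.42 and −0.49 after 1000 ppm CO. These pairs are shown because their members report the same gene with different letters.
Cox5b probe 1, chr9:35627238-35627298, 38.3% G and C: ttaaCatttCaGaatGtaaaGGaaaaCGtC
Cox5b probe 2, chr9:35626188-35626409, 53.3% G and C: GaCtGGatCCataCaatatGCtaCCtCCaa
Ndufc2 probe 1, chr1:154642009-154642068, 38.3% G and C: CCtCaCCaCaaCCtGaatattttCtGaatt
Ndufc2 probe 2, chr1:154641288-154641951, 30% G and C: tGtttGGGtatatGaaattaCatCCaGaaG

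Ndufaf4, a further assembly factor of complex I, has 3 probes. Probes 1 and 2 stood between −0.64 and −0.26 after 1000 ppm CO, between −0.25 and −0.11 after 3000 ppm CO and between −0.48 and −0.23 after 5% O2. Probe 3, whose level after air was 1.53 against −1.73 and −1.80 for the others, stood between −0.18 and 0.07 after 1000 ppm CO and at 0.48 at 12 h after 3000 ppm CO. The direction of Ndufaf4 against air therefore differed between its probes. By contrast, the pair for Atp5g2 never differed by more than 0.10, and the pair for Ndufa2 by more than 0.06.

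Across the 102 member probes, the model difference between 3000 and 1000 ppm CO fell with the share of G and C in the probe (Pearson r = −0.53, Spearman rho = −0.58). Across all 32230 probes tested r was −0.003 and rho −0.03, and across the 3060 probes of like brightness they were −0.18 and −0.24. These are descriptions over probes that share the same 12 arrays. The 5 members under 35% G and C were all higher after 3000 ppm CO, with a median of 0.40. Of the 46 members from 35% to under 45%, 34 were higher (median 0.06), of the 39 from 45% to under 55%, 9 were higher (median −0.10), and of the 12 at 55% or above, 3 were higher (median −0.16). Over all probes the medians of the same 4 bins were 0.10, 0.03, 0.01 and 0.005. In an alternative added after these values were seen, each array was adjusted by the median deviation of all tested probes at each G and C count. With it 3 of the 4 members passed, as did 4.22% of all probes (1361). Across all probes r was −0.003, so this adjustment could take out little of the trend among the members.

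**Figure D4:**
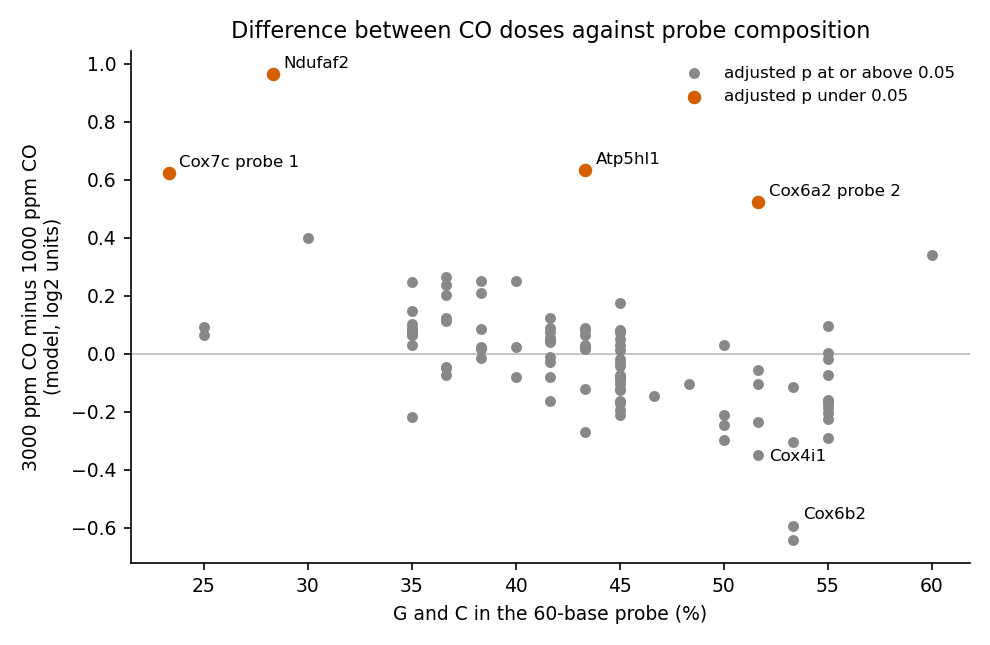
Model difference between 3000 and 1000 ppm CO (y axis, log2 units, positive where higher after 3000 ppm) against the share of G and C in the 60-base probe (x axis, %) for the 102 member probes, with the 4 that passed an adjusted p of 0.05 in orange. Members poor in G and C lie mostly above 0 and members rich in G and C mostly below.

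On the electron-input side, complexes I and II, no probe other than that of Ndufaf2 passed in any contrast of the model, which does not show that they did not differ. Ndufs1, a core iron-sulfur subunit of complex I, had one of the wider ranges: it was −0.05, −0.09, 0.47 and −0.04 after 1000 ppm CO, while after 3000 ppm CO it was −0.03, −0.11, −0.34 and 0.27, with −0.01, −0.23 and −0.08 in the 5% O2 rats. Ndufb3 probe 2, for an accessory subunit, was the highest member at 6 h after 3000 ppm CO (0.41) and was also above air in the other 10 exposed arrays. Complex II, which is also the succinate dehydrogenase of the citric acid cycle, was flat for its flavoprotein Sdha (−0.13 to 0.20) and the membrane anchor Sdhd (−0.22 to 0.10). Its iron-sulfur subunit Sdhb ran from −0.29 to 0.11. The other anchor, Sdhc, was −0.34, −0.41, −0.04 and −0.19 after 1000 ppm CO, while after 3000 ppm CO it was −0.18, −0.21, −0.29 and 0.06, with 0.18, 0.11 and 0.16 in the 5% O2 rats. The 5% O2 arrays thus stood above all 8 CO arrays for Sdhc, but the model difference did not pass for 1000 ppm CO (−0.45 ± 0.13, adjusted p = 0.244) or 3000 ppm CO (−0.36 ± 0.13, adjusted p = 0.298; limma).

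In complex III, Uqcr11, a small accessory subunit, varied most. It was 0.46, 0.40, −0.20 and 0.13 after 1000 ppm CO, while after 3000 ppm CO it was −0.02, 0.32, 0.24 and 0.03, with −0.38, 0.14 and 0.16 in the 5% O2 rats. Its lowest values were on the arrays lowest in medium spiny neuron markers (median −0.87 against air at 6 h after 1000 ppm CO and −3.19 at 0 h after 5% O2). Its highest were on arrays with marker medians of 1.04 and 0.94, 1000 ppm CO at 0 and 2 h. Cox6a2 probe 1 also had its lowest values there, −0.68 and −0.25, and Cox7c probe 2 its lowest, −0.27 and −0.25. The other probe of each gene did not share this on both arrays, though each was lowest at 6 h after 1000 ppm CO. Cox6a2 probe 2 was above air at 0 h after 5% O2. Cox7c probe 1 was lower on every 1000 ppm CO array than at 0 h after 5% O2. The part of medium spiny neurons in these values was not tested. The 3 probes of Cycs, the mobile carrier cytochrome c, were all highest at 12 h after 3000 ppm CO (0.30, 0.23 and 0.47), and over all exposed arrays they ran from −0.31 to 0.47.

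In complex IV the isoforms were followed in pairs. Cox4i1, the ubiquitous isoform of subunit 4, was the one member at least 1.5-fold above air: 0.62, 0.65, 0.61 and 0.50 after 1000 ppm CO. It was 0.02, 0.25 and 0.08 at 0, 2 and 6 h after 3000 ppm CO, 0.63 at 12 h, and 0.27, 0.31 and 0.19 after 5% O2. The doses thus overlapped only through the 12 h rat after 3000 ppm CO. The model difference was −0.35 ± 0.14 (limma, adjusted p = 0.219). Without the 12 h rat of either dose it was −0.51 (limma, adjusted p = 0.0382), in a fit where 8.13% of all probes passed, against 4.43% with all arrays. The 1000 ppm CO arrays filled their slide alone, so dose and slide cannot be told apart here. Cox4i2, the isoform known to be induced by low oxygen in several tissues, was −0.11 to 0.07 after 1000 ppm CO, 0.07 to 0.14 after 3000 ppm CO, with 0.21, 0.29 and 0.06 in the 5% O2 rats, and passed in no contrast.

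Subunit 5 is represented by Cox5a (−0.39 to 0.26 over the exposed arrays) and by the discordant Cox5b probes. Cox6a1, the common partner isoform of Cox6a2, ran from −0.03 to 0.25. Cox6b2, an isoform known from testis, was 0.25, 0.35, 0.30 and 0.39 after 1000 ppm CO and −0.30, 0.00, −0.11 and −0.67 after 3000 ppm CO, so that the doses did not overlap, and −0.06, 0.34 and 0.04 after 5% O2. Its model difference of −0.59 ± 0.14 missed the threshold (limma, adjusted p = 0.0633). Of 24 alternatives, it passed in 2 and not in the other 22. The 2 were quantile normalization (−0.67, limma, adjusted p = 0.0319, with 4.00% of all probes passing) and the values of the deposited series table (−0.70, limma, adjusted p = 0.0308, with 3.57%). Here too the 1000 ppm dose and its slide cannot be told apart. Cox7a2 ran from −0.09 to 0.25, Cox7a2l, a factor that joins complexes into supercomplexes, from −0.21 to 0.13, Cox8a from −0.12 to 0.27, and Ndufa4, once counted with complex I and now with complex IV, from −0.16 to 0.20. Cox6b1, Cox7a1 and Ndufa4l2 were not analysed here.

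Cox8b, the heart and muscle isoform of subunit 8, stood apart from all other members. Its level was 2.20 after air, and against air it was −4.16, −4.20, −1.52 and −2.83 at the 4 hours after 1000 ppm CO. After 3000 ppm CO it was −3.93, −3.81, −3.70 and −3.82, and after 5% O2 −3.81, −1.23 and −0.88. The 3000 ppm CO rats on the slide of the air rat lay −3.93 to −3.70 from it, and the 1 on another slide −3.82. All 11 exposed arrays were below the air array, and no contrast passed. For 3000 ppm CO against air the model gave −4.82 ± 0.97 (limma, adjusted p = 0.546). That estimate is lower than each single 3000 ppm CO array because the model takes out hour terms fitted over all exposures.

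All 11 measured markers of choroid plexus and ependyma, cells that line the brain ventricles, were below air in each exposed array, apart from 1 marker at 6 h after 5% O2. Their summed level was 535.7 after air, 3.9, 10.4, 362.7 and 246.0 after 1000 ppm CO, then 45.1, 10.2, 23.5 and 8.4 after 3000 ppm CO, while the 5% O2 rats had 193.6, 417.8 and 454.1. Ttr, the transthyretin gene that defines choroid plexus, was −7.41, −5.82, −0.56 and −1.03 against air after 1000 ppm CO, −3.57, −5.91, −4.54 and −6.35 after 3000 ppm CO, with −1.39, −0.31 and −0.25 in the 5% O2 rats. The exposed arrays with the highest Cox8b, namely the 2 h and 6 h rats of 5% O2 and the 6 h rat of 1000 ppm CO, were also the highest for Ttr. The part of these cells in the Cox8b values was not tested.

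**Figure D5:**
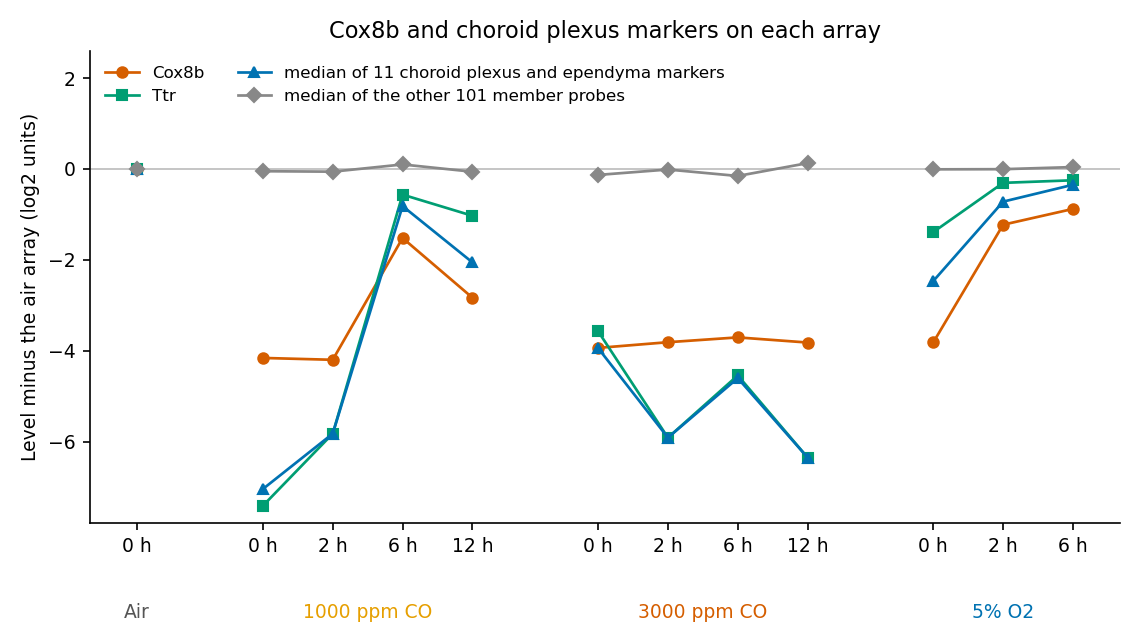
Level minus the air array (y axis, log2 units) of Cox8b, Ttr, the median of 11 choroid plexus and ependyma markers and the median of the other 101 member probes on each array (x axis, hours after the exposure named below; 1 rat per point, lines join the rats of an exposure). Cox8b and the markers are highest after air, at 6 h after 1000 ppm CO and at 2 and 6 h after 5% O2, while the other members stay near 0.

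In ATP synthase, Atp5g1, Atp5g2 and Atp5g3 encode the same mature c subunit of the membrane ring and differ in their import signals. Atp5g3 had the wider range. Its probe 2 was −0.03, 0.01, 0.52 and 0.05 after 1000 ppm CO, while after 3000 ppm CO it was −0.16, −0.07, −0.35 and 0.44, with 0.09, 0.02 and 0.23 in the 5% O2 rats, and its other probes were likewise highest at 6 h after 1000 ppm CO or 12 h after 3000 ppm CO and lowest at 6 h after 3000 ppm CO. Both probes of Atp5g2 were higher in all 4 arrays of 1000 ppm CO (0.15 to 0.29) than in the 4 of 3000 ppm CO (−0.15 to 0.11), a difference that did not pass (probe 1, −0.29 ± 0.09, limma, adjusted p = 0.132). Atp5g1 ran from −0.23 to 0.27. The copies therefore differed in how they stood after 1000 ppm CO, where Atp5g2 was above air at all hours and Atp5g3 mainly at 6 h, and this difference was not tested.

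Among the names that are not subunits, Atp5s (now Dmac2l) was above air in 10 of 11 exposed arrays and was the highest member at 0 h (0.45) and 6 h (0.33) after 5% O2. Atp5sl (now Dmac2), which takes part in complex I assembly, had probe 1 at 0.50 at 6 h after 1000 ppm CO and 0.40 at 12 h after 3000 ppm CO, and at −0.32 at 6 h after 3000 ppm CO. Cox4nb is now Emc8, a subunit of an endoplasmic reticulum complex that inserts membrane proteins and not of cytochrome c oxidase, and it ran from −0.14 to 0.08.

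Of 101 measured genes from 10 lists of related mitochondrial function, 1 passed in the comparison of the CO doses, where 4.43% of all probes passed. In each of the other 8 contrasts 0 passed (at most 0.31% of all probes). The 1 was Pdha1, the catalytic alpha subunit of pyruvate dehydrogenase: −0.54, −0.65, −0.47 and −0.40 after 1000 ppm CO, against −0.05 to 0.09 after 3000 ppm CO. Here too the 1000 ppm dose and its slide cannot be told apart. The 14 citric acid cycle genes had a median of −0.23 at 6 h and 0.23 at 12 h after 3000 ppm CO, and the 15 carriers of ATP, phosphate and ions −0.14 and 0.26, where the respiratory chain had −0.15 and 0.12. At 6 h after 1000 ppm CO they were 0.18 and 0.26. The 14 assembly factors of cytochrome c oxidase had medians of −0.10 to 0.06 over the exposed arrays, and the 18 regulators of mitochondrial gene expression −0.18 to 0.12. The other 6 lists, of pyruvate dehydrogenase and its kinases, mitophagy and hypoxia response, ATP synthase assembly and the assembly factors of complexes I, II and III, had medians of −0.25 to 0.27. Among the regulators, Ppargc1a, a coactivator of mitochondrial biogenesis, was −0.60 to 0.16, and Tfam, which packages and transcribes mitochondrial DNA, −0.16 to 0.12. Pdk4, which inhibits pyruvate dehydrogenase, had the widest values of the 101, from −0.77 at 6 h after 3000 ppm CO to 1.59 at 2 h after 5% O2. Bnip3 and Higd1a, known targets of the hypoxia-inducible factor in mitochondria, lay between −0.19 and 0.36 and between −0.16 and 0.51.

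Letters known to bind regulators of these genes were searched in their promoters on either strand. RefSeq promoters (build GRCr8; 250 bases before to 50 after the start) were given for 70 of the 82 genes. The letters GCGCANGCG, the core of the site of NRF1, were in 20 of the 70 (28.6%) and in 6.26% of 27457 promoters of all genes. The letters CCGGAAG, bound by ETS factors such as GABP, were in 21 of 70 (30%) and in 9.22% of all, and 3 promoters held both. The letters ACGTG, the core bound by the hypoxia-inducible factor, were in 22 of 70 (31.4%) and in 19.7% of all. A match is a description of the letters only, and no binding was measured. The 120 bases before the start are shown for genes with matches to the NRF1 or ETS letters, which are in capitals, and for Cox8b, which had neither. The ACGTG letters are not in capitals. Over the whole window they were in 3 places for Cox8b, 1 each for Atp5me and Cox8a and 0 for Sdha.
Sdha, chr1:30764433-30764552, plus strand: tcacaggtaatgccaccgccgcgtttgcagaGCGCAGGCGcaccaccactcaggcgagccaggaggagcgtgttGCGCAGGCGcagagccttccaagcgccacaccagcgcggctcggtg
Atp5me (Atp5i), chr14:1464740-1464859, plus strand: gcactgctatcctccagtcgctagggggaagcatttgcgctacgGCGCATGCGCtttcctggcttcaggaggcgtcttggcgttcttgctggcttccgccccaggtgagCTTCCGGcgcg
Cox8a, chr1:213833624-213833743, minus strand: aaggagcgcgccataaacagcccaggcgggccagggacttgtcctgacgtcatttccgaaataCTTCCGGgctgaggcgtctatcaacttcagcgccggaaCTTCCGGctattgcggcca
Cox8b, chr1:205408274-205408393, minus strand: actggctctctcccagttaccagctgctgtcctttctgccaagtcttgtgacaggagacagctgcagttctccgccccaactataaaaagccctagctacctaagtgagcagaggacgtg
Sdha held the NRF1 letters in 2 places of the printed stretch, Atp5me held them in 2 overlapping places, one per strand, with 1 match to the ETS letters, and Cox8a held the ETS letters in 2 places, read here on the opposite strand as CTTCCGG. Sdha and Cox8a were among the flat members, and Atp5me (Atp5i on the array) did not pass in any contrast.

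Of the 4 probes left out, Cox6c-ps1, a pseudogene of a cytochrome c oxidase subunit, was well above background on all arrays. It was −2.09, −2.11, −1.96 and −2.11 against air after 1000 ppm CO, −0.09, 0.13, −0.04 and −0.52 after 3000 ppm CO, with −0.29, −0.37 and −0.62 in the 5% O2 rats. Its difference between the doses was 1.94 ± 0.14 (limma, adjusted p = 0.00344), larger than that of any member, with all 4 arrays of 1000 ppm CO below the other 8. The probes of Uqcrq and 1 of Uqcrb were not well above background on any array, and that of Cox8c on 1. A further 6 probes carry a name that the rule did not match and a current symbol that it would: Ndufaf5, Ndufaf6, Ndufaf7, Uqcr10, Atp5if1 and Atp5mk. Their SDs over the 12 arrays were 0.10 to 0.32, and the widest was Ndufaf6, from −0.91 to 0.21 against air.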

How the data were processed

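RNA from both striata (100 ng) was labelled with Cy3 and hybridised to one-colour Agilent arrays, per the labels' protocols. Per the file headers, Agilent Feature Extraction 10.7.3.1 made the spot intensities: the authors' processed signal is a background-subtracted intensity with no scaling between arrays, the mean signal and median local background are raw intensities, and probe positions are on rn4. The other deposited columns used are flags, coded as a score of 0 or 1, for spots well above background, outlying or saturated. The deposited series table holds log2 values; no source used here states their scale or centring, but every column has a median of 0, and over 40998 probes their correlation with each array's own log2 processed signal was 0.9999 or more.

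The log2 processed signal minus the array's 75th percentile was analysed, without outlying spots, averaging repeated spots of a probe. Current symbols came from a RefSeq table, matched on accession (17497 probes), symbol (3104) or synonym (553). Each probe was kept separately. limma 3.58.1 (R 4.3.3) fitted exposure and hour as additive terms to 32230 probes (5 residual degrees of freedom, prior 2.21); tests were two-sided, adjusted by Benjamini-Hochberg, and the lone air array was assumed to vary like the others. With 1 rat per group, p-values measure the spread around the additive model, and the number of arrays limits their precision. Single arrays were set against air over 27929 probes, counting 1.5-fold differences, with no p-value. The model was tested on simulated data with 200 changed probes. Python 3.11.15, pandas 2.3.3 and matplotlib 3.10.9 made tables and figures.

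Probes named are those past a contrast, the 10 widest and 3 narrowest over the arrays, the highest and lowest in each array, isoform pairs, genes whose probes disagreed in sign by over 0.5, Cycs and Sdha to Sdhd. The genes, the 10 pathway lists, the 10 marker lists and the rules were chosen with earlier results of these data known. Alternatives were normexp (offset 50), quantile normalization, the deposited series values, other filters on dim probes, 1 probe per gene, a trended robust prior, slide as a random block or fixed factor, only 0, 2 and 6 h, leaving out each array, a 2-fold count and a reference made of the arrays' median. Probe G and C content, and leaving out 1000 ppm CO at 6 h with 5% O2 at 0 h, were added after seeing the data. The sequence of 1 probe is not reported here.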

Additional observations from a re-analysis of the deposited data

Results flagged for a closer look

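The left-out probe of Cox8c, an isoform of cytochrome c oxidase subunit 8, exceeded air by 2.53 log2 units in the 2 h rat of 3000 ppm CO, the 1 array of 12 on which its single spot was well above background. On the other 11 arrays it was not well above background, so the value is not a measured difference on both sides.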

How the results depend on the processing

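No paired analysis was possible because each combination of exposure and hour has 1 rat, so the groups share fewer than 2 replicate numbers. The count of 4 members past the test between 3000 and 1000 ppm CO became 0 with normexp (18 of all probes passed). It was 2 with the deposited series values (1150 of all probes) and 0 with slide as a random block (0 of all probes). Without the 6 h rat of 1000 ppm CO and the 0 h rat of 5% O2 it was 1 (649 of all probes). Leaving out single arrays gave 0 to 4, and the all-probe count of 1428 ran from 145 to 2620. Leaving out a 12 h rat of either dose also takes the other out of this contrast. For 1000 ppm CO against 5% O2 leaving out single arrays gave 0 to 3; the 3 came without the 6 h rat of 1000 ppm CO, where 2082 of all probes passed against 100 with it. With slide as a fixed factor the contrasts of 1000 ppm CO could not be estimated. Cox6a2 probe 2 turned from 0.52 to −0.095 with normexp (adjusted p = 0.803); the cause was not tested. The member median of 1000 ppm CO at 6 h against air, 0.09, was −0.34 with normexp and 0.26 with the series values, and that of 3000 ppm CO at 12 h, 0.12, was 0.23 with the series values. The range over the arrays of the complex medians was, with normexp and with the series values, 0.41 and 0.54 for complex I, 0.52 and 0.48 for complex II, 0.45 and 0.49 for complex III, 0.42 and 0.27 for complex IV and 0.46 and 0.58 for ATP synthase; with quantile normalization it was 0.23 for complex IV. The 32 values at least 1.5-fold from air were 13 at 2-fold and 13 against the median of the 12 arrays. The causes of these changes were not tested.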
